A study of Mus musculus with 6 samples.

Results

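Bidirectional protein-coding promoters are stretches of DNA from which 2 neighbouring protein-coding genes start and are read in opposite directions. They were taken from the GENCODE M21 annotation of the mouse genome (GRCm38, chromosomes 1 to 19) as a gene on the minus strand and a gene on the plus strand that point away from each other and whose start sites lie 0 to 1000 bp apart. This gave 735 pairs, which hold 1450 of 20807 protein-coding genes. Of these genes, 20 are in 2 pairs, and such pairs are counted separately even where they share both starts. The starts were a median of 128 bp apart (quartiles 66 and 240 bp). They were compared with 18126 single promoters, each the start of a protein-coding gene with no other protein-coding start within 1000 bp. A further 1231 genes, with another such start within 1000 bp but in no pair that meets the rule, are in neither set. The window of a pair ran from 500 bp before the minus-strand start to 500 bp past the plus-strand start, and the window of a single promoter 500 bp to each side of its start.

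The assay was ATAC-seq, where accessible DNA is cut and tagged by a transposase, on cultures of adult neural stem cells (NSCs) from the subependymal zone (SEZ) of mice aged 10 weeks. All 6 libraries carried the Srr2 del/del genotype, a CRISPR-Cas9 deletion of the Sox2 enhancer Srr2, so nothing below separates the deletion from the wild type, which was not analysed here. The 3 PROLIF libraries were harvested after 2 days in vitro with mitogens (3 days in the design text of the series) and the 3 DIFF libraries 1 day after mitogens were withdrawn and serum added, with replicate numbers 1, 2 and 4 in each state. The data are a list of called peaks per library, of 60006 to 88039 peaks, of which 699 to 719 overlapped a bidirectional promoter. The background pileup, which stands for depth here, was 2.85 to 3.63 reads in 5 libraries and 6.01 in DIFF 4, and weaker peaks can pass the caller where depth is greater. Of markers checked as promoter peaks in the bulk cultures, the neural stem cell genes Sox2, Nes and Olig2 had a peak in all 6 libraries and Pax6 in none. Of 5 microglial markers 1 (P2ry12) and of 4 endothelial markers 1 (Kdr) had a peak in all 6, Tmem119 of microglia had a peak in 5, and Aif1, Cx3cr1, Csf1r, Cdh5, Tek and Pecam1 had none.

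A promoter is the place where RNA polymerase II assembles, and at active genes it is kept free of nucleosomes, which makes it open to the transposase. In a bidirectional promoter a single nucleosome-poor stretch commonly serves both genes, each with a core promoter of its own facing outward. Such pairs are known to be rich in CpG dinucleotides, poor in TATA boxes, and common among genes of DNA repair, mitochondria and the cell cycle. The stretch between the starts is shown for 7 well-known pairs and for a pair without a peak, so that its length and base content can be set beside its peak. Each is the plus strand of GRCm38 from the minus-strand start to the plus-strand start, 5′ to 3′. Capitals mark a match to any of 12 motifs searched on both strands, which here are CCAAT (bound by NFY; ATTGG on the other strand), GGGCGG (SP/KLF; CCGCCC on the other strand) and GCGCATGC (NRF1).

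Col4a4/Col4a3 (chr1:82586849-82586921): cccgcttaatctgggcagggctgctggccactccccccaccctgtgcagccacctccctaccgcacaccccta
Aurka/Cstf1 (chr2:172370535-172370681): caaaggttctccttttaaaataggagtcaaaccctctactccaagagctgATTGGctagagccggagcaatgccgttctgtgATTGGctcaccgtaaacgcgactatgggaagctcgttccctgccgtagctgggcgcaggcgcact
Mrps12/Sars2 (chr7:28741820-28741992): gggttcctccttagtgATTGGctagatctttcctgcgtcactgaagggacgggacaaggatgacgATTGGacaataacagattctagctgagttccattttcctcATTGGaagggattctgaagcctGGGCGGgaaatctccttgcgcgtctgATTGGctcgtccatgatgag
Wrap53/Trp53 (chr11:69580255-69580359): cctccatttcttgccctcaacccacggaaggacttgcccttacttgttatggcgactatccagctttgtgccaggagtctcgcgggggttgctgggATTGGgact
Brca1/Nbr1 (chr11:101551955-101552149): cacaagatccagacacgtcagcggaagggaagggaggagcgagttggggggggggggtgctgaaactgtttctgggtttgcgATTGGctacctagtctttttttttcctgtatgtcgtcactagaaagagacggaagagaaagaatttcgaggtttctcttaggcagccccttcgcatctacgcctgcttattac
Psmb1/Tbp (chr17:15499751-15499888): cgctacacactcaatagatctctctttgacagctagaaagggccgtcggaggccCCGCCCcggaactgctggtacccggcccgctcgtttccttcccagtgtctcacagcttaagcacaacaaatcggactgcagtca
Polh/Xpo5 (chr17:46202645-46202782): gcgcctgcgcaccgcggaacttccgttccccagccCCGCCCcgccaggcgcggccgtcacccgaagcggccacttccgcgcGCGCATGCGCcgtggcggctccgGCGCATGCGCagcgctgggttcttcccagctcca
4930430F08Rik/1700017N19Rik (chr10:100590423-100590484): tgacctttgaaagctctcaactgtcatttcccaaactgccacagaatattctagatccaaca

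The Mrps12/Sars2 stretch, between the genes of a mitochondrial ribosomal protein and the mitochondrial seryl-tRNA synthetase, held 4 CCAAT boxes and 1 GGGCGG in 173 bp. The Polh/Xpo5 stretch, between a translesion DNA polymerase and the exporter of microRNA precursors, held 23 CpG sites in 138 bp and 2 overlapping pairs of NRF1 matches. Col4a4/Col4a3, which encode collagen IV chains of basement membranes, had 2 CpG sites in 73 bp and no match to the motifs, although 68.5% of its bases were G or C. The pair without a peak, 4930430F08Rik/1700017N19Rik, had no CpG site in 62 bp and 40.3% GC. A match describes letters only and is no evidence that the factor was bound.

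Nearly every bidirectional promoter carried a peak in every library. A peak was found in all 6 libraries at 695 of 735 pairs (94.6%), against 9144 of 18126 single promoters (50.4%) and 52.2% of all 18861 promoters examined. At 25 pairs (3.40%) no library had a peak, against 7454 single promoters (41.1%). By library, 96.1%, 95.5% and 95.2% of pairs had a peak in PROLIF 1, 2 and 4, and 95.1%, 95.2% and 96.1% in DIFF 1, 2 and 4. The share was 95.5% ± 0.425 for pairs and 54.5% ± 1.10 for single promoters (SD, n = 6 libraries). The difference of 41.0 percentage points lay between 40.1 and 42.3 and had the same sign in 6 of 6 libraries (two-sided exact sign-flip permutation test, p = 0.03125, adjusted p = 0.03125 over 4 comparisons). This is the smallest p that 6 libraries allow. The test asks whether the gap repeats over libraries of the same promoters. It does not measure the spread among promoters. If equal replicate numbers of the 2 states share a culture, which the labels do not say, only 3 units are independent and such a test could not go below 0.25.

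**Figure D1:**
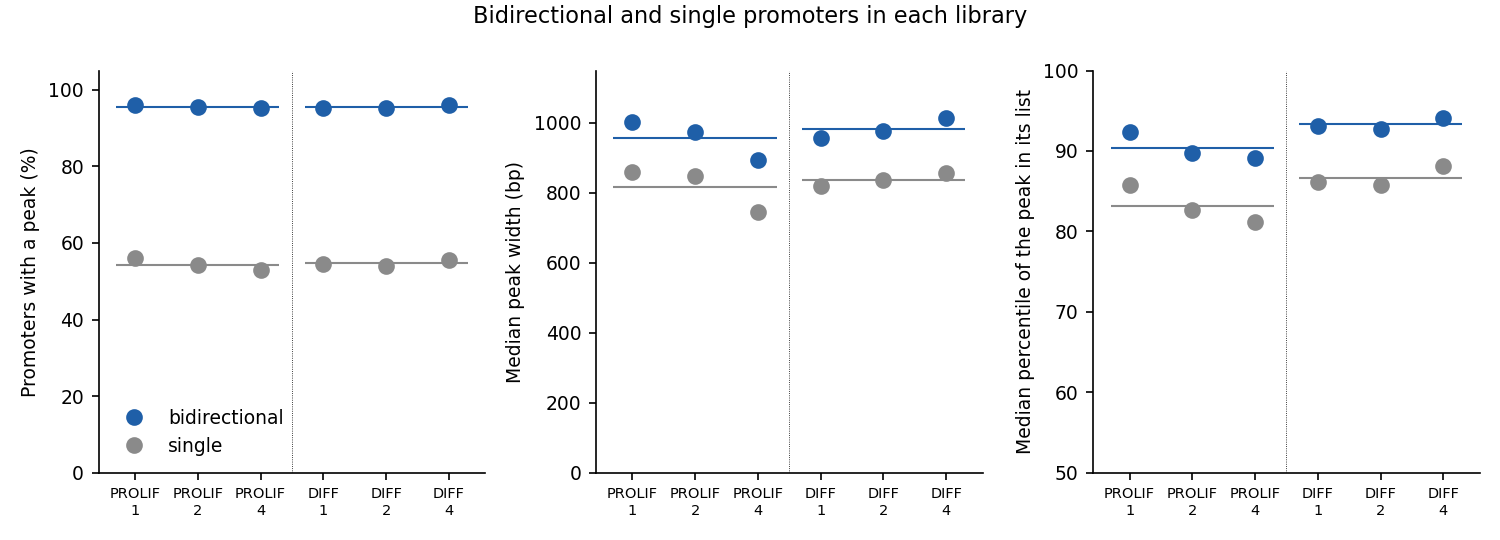
Share of promoters with a peak (%), median width of the best peak (bp) and its median percentile among all peaks of the library, for 735 bidirectional and 18126 single promoters in each of 6 libraries; points are libraries and lines the means of 3 libraries of a state. Bidirectional promoters lie above single promoters in each library, with a peak at 95.1% to 96.1% of pairs.

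Peaks at bidirectional promoters were also wider and ranked higher. The median width of the best peak, the overlapping peak with the highest −log10 p, was 1002, 973 and 893 bp at pairs in PROLIF 1, 2 and 4 and 958, 976 and 1014 bp in DIFF 1, 2 and 4. It was 969 ± 42.5 bp at pairs and 828 ± 43.3 bp at single promoters, a difference of 141 bp (range 126 to 157, wider in 6 of 6 libraries, exact sign-flip test, p = 0.03125). The groups of libraries do not overlap, since the narrowest median of pairs, 893 bp, is above the widest of single promoters, 861 bp. The percentile of the best peak within its own list, 100 being the strongest, was 91.9 ± 1.97 at pairs and 84.9 ± 2.55 at single promoters, a difference of 6.92 points (5.93 to 7.97, 6 of 6 libraries, exact sign-flip test, p = 0.03125). The fold enrichment over background had medians of 10.4 to 13.2 at pairs and 8.80 to 11.2 at single promoters.

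Base content moved with these differences. A promoter is called CpG-rich here if 300 bp of it have at least 50% GC and a CpG observed over expected ratio of at least 0.6. By that measure 81.1% of pairs and 38.0% of single promoters were CpG-rich, with a median GC of 62.3% and 54.3% and a median CpG ratio of 0.852 and 0.469. Among CpG-rich promoters alone the occupancy of pairs was 5.36 percentage points above that of single promoters, the width 94.4 bp larger and the percentile 4.69 points higher, each in 6 of 6 libraries (exact sign-flip test, p = 0.03125). Of 596 CpG-rich pairs 584 (98.0%) had a peak in all 6 libraries, against 6208 of 6882 CpG-rich single promoters (90.2%). Of 139 pairs that were not CpG-rich 111 (79.9%) had a peak in all 6, against 26.1% of single promoters of that kind.

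**Figure D2:**
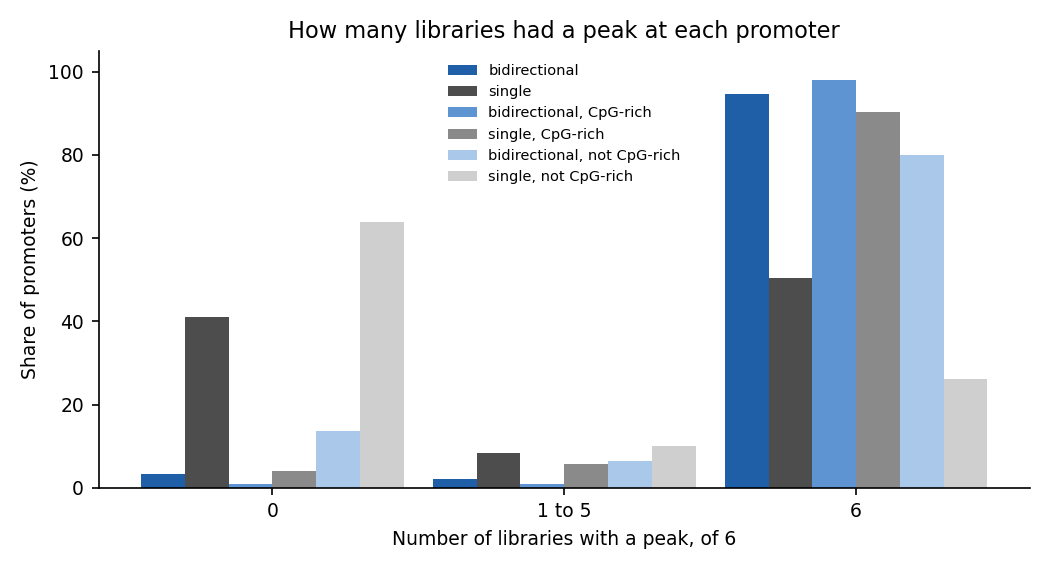
Share of promoters (%) with a peak in none, in 1 to 5 or in all 6 libraries, for bidirectional promoters (blue bars) and single promoters (grey bars), in all and split by CpG content. In all 6 libraries a peak was found at 98.0% of CpG-rich pairs, 90.2% of CpG-rich single promoters, 79.9% of other pairs and 26.1% of other single promoters.

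Single promoters next to a divergent long non-coding RNA were closer to the pairs. A divergent lncRNA start lay within 1000 bp at 656 single promoters, of which 534 (81.4%) had a peak in all 6 libraries and 72.6% were CpG-rich. Against these, pairs had a peak 12 percentage points more often, a width 50.1 bp larger and a percentile 2.02 points higher, again in 6 of 6 libraries (exact sign-flip test, p = 0.03125). This comparison was added after the data were seen.

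The sequences of bidirectional promoters differed from those of single promoters in several motifs, scanned in 300 bp centred between the starts of a pair and from 250 bp before to 50 bp after a single start. The ETS motif CCGGAAG was in 28.3% of pairs, 9.20% of single promoters and 9.94% of all. The YY1 motif AAGATGGCG was in 5.58% of pairs, 1.31% of single promoters and 1.48% of all, and the palindrome TCTCGCGAG in 3.27%, 0.673% and 0.774%. GCGCATGC (NRF1) was in 6.67%, 3.10% and 3.23%, and the cAMP response element TGACGTCA in 4.49%, 2.22% and 2.31%. The TATA box TATAAA was scarcer in pairs, at 4.49% against 13.7% and 13.3% of all, as were ACAATG (SOX), at 4.49% against 11.0% and 10.8%, and TGANTCA (AP-1), at 3.40% against 7.25% and 7.10%. GGGCGG was in 67.9% of pairs, 41.1% of single promoters and 42.1% of all, CACGTG (E-box) in 10.9%, 7.48% and 7.61%, and ACTACAATT (ZNF143) in 0.816%, 0.508% and 0.520%. Among CpG-rich promoters alone some of these gaps were small or gone. There GGGCGG was in 75.7% of pairs and 76.7% of single promoters, CACGTG in 12.2% and 12.1%, GCGCATGC in 7.72% and 6.34%, TGACGTCA in 5.20% and 4.07%, TGANTCA in 2.52% and 3.18%, and ACTACAATT in 0.839% and 0.509%. In the same CpG-rich sets the shares stayed further apart for CCGGAAG, at 32.7% and 17.3%, AAGATGGCG, at 6.38% and 2.75%, TCTCGCGAG, at 3.69% and 1.67%, TATAAA, at 2.01% and 5.32%, and ACAATG, at 2.85% and 6.04%. These shares were not tested. Scanned as single promoters are, from their plus-strand start, 27.2% of pairs held CCGGAAG and 4.63% TATAAA.

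Among the pairs themselves, those with a CCAAT box had stronger peaks. CCAAT was in 325 pairs (44.2%, against 38.5% of single promoters and 38.7% of all), and the median over libraries of their median percentile was 95.2, against 89.0 for pairs without it. The gap was 4.80 to 9.07 points in the 6 libraries. Pairs with GGGCGG were 3.15 to 4.97 points above those without it, and pairs with ACAATG 1.22 to 3.04 points above. Below those without the motif in each library were pairs with TATAAA (−4.45 to −1.78), CACGTG (−3.41 to −1.19) and AAGATGGCG (−3.13 to −0.154). For the other motifs searched the sign differed between libraries. Pairs with CCGGAAG had a median percentile of 92.6 against 92.4. Of them 207 of 208 (99.5%) had a peak in all 6 libraries, against 92.6% of pairs without it and 94.6% over all pairs. That share was 100% with AAGATGGCG (41 pairs), TGACGTCA (33 pairs) or ACTACAATT (6 pairs). It was lower with than without TCTCGCGAG (20 of 24, 83.3% against 94.9%) and ACAATG (26 of 33, 78.8% against 95.3%). The same held for TGANTCA (22 of 25, 88.0% against 94.8%) and TATAAA (31 of 33, 93.9% against 94.6%). These shares rest on few pairs. These values describe pairs of the same 6 lists and were not tested.

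In most pairs a single peak spanned both starts. In the 6 libraries 90.7% to 93.3% of occupied pairs had their best peak over both starts, 5.10% to 7.43% over 1 start and 1.00% to 1.86% over neither. Of 695 pairs with a peak in all libraries, 627 (90.2%) had both starts covered in all 6, 36 in 1 to 5 and 32 in none. For comparison, the best peak covered the start at 86.7% to 87.9% of occupied single promoters. The share with both starts covered had a median over libraries of 98.5% for starts 0 to 100 bp apart, 95.0% for 101 to 200 bp, 94.7% for 201 to 300 bp, 89.6% for 301 to 500 bp and 56.2% for 501 to 1000 bp. In the last group 10.2% to 24.6% of occupied pairs had more than 1 peak, against 0.673% to 2.02% in the first.

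The width of the peak grew with the gap between the starts by less than the gap itself. The median width was 940 bp for starts up to 100 bp apart, 983, 1014 and 1088 bp in the following groups and 1068 bp for 501 to 1000 bp. Occupancy was similar up to 500 bp, with a peak in all 6 libraries at 294 of 307, 187 of 200, 94 of 96 and 61 of 64 pairs, and at 59 of 68 pairs beyond. The median percentile was 89.1 in the first group, 94.3, 95.8 and 95.8 in the next and 89.0 in the last.

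The summit, the point of highest pileup, lay to either side of the middle in similar shares when pairs of all distances were pooled. Over all occupied pairs its median offset from the midpoint between the starts was −6 to −2.5 bp (negative towards the minus-strand gene), its median distance from the midpoint without the sign was 51.5 to 64 bp, and 46.4% to 48.6% of summits were nearer the plus-strand start. The summit fell between the starts at 31.8% of pairs up to 100 bp apart, 66.0% for 101 to 200 bp, 79.4% for 201 to 300 bp, 76.8% for 301 to 500 bp and 62.3% beyond (medians over libraries). In 234 of 695 pairs it lay between the starts in all 6 libraries and in 195 in none. Past 500 bp the median absolute offset was 310 to 352 bp, and 4.92% to 9.84% of summits were within 100 bp of the midpoint. Summits there leaned towards the minus-strand gene, with a median offset of −174.5 to −104 bp and 39.3% to 45.9% nearer the plus-strand start. The distance to the nearest start was 45.0 ± 1.90 bp in pairs and 79.5 ± 3.27 bp at single promoters (SD, n = 6; difference −34.5 bp, exact sign-flip test, p = 0.03125). A pair offers 2 starts to be near to, and measured to the plus-strand start alone the difference turned to 5 bp further in pairs (0.5 to 7 bp, 6 of 6 libraries, exact sign-flip test, p = 0.03125).

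**Figure D3:**
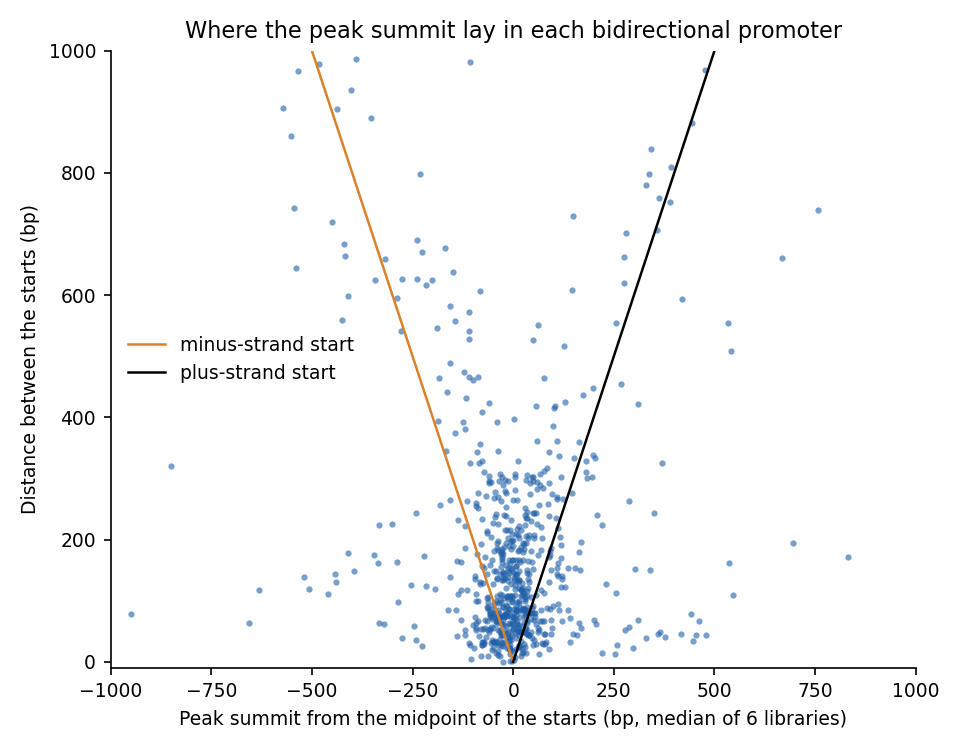
Position of the peak summit relative to the midpoint between the starts (bp, median of 6 libraries; negative is towards the minus-strand gene) against the distance between the starts (bp) for 695 bidirectional promoters with a peak in all libraries; lines mark both starts. Summits of close pairs gather around the midpoint, and beyond 500 bp few lie within 100 bp of it.

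Of 29 entries in a list of well-known divergent pairs, 14 met the rule, 2 were farther apart and 1 had a symbol absent from this annotation. In the other 12 the plus-strand start lay 21 to 700 bp before the minus-strand start, so the genes overlap at their starts. All 14 that met the rule had a peak in all 6 libraries. Mcm4/Prkdc (chr16:15637400-15637866), the genes of a subunit of the replicative helicase and of the catalytic subunit of DNA-dependent protein kinase, had percentiles of 99.7, 99.6 and 99.3 in PROLIF 1, 2 and 4 and 99.7 in each DIFF library. Pdcd10/Serpini1 (chr3:75556856-75557547), an adaptor protein known from cerebral cavernous malformations and the neuronal protease inhibitor neuroserpin, with starts 691 bp apart, had percentiles of 99.3 to 99.8 and 1 peak of 1140 to 1494 bp over both starts in each library. These peaks were among the strongest of every list.

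Several listed pairs hold genes of the cell cycle and of DNA repair. Atm/Npat, the DNA damage kinase and a coactivator of histone genes, had percentiles of 94.8, 90.6 and 96.5 in PROLIF and 99.3, 96.5 and 97.3 in DIFF. Aurka/Cstf1, a mitotic kinase and an mRNA cleavage factor, had 95.2 to 98.0. In this pair the summit lay 30 to 35 bp to the plus-strand side of the midpoint in 5 libraries and 7 bp to the other side in PROLIF 1, in each case between the starts. Brca1/Nbr1, a homologous recombination factor and an autophagy receptor, had percentiles of 89.2 to 95.9 and a peak of 1289 to 1377 bp over both starts. Its summit lay 631 to 706 bp to the plus-strand side of the midpoint in the 6 libraries, past the Nbr1 start and outside the stretch shown. Rhno1/Foxm1, a factor of the replication checkpoint and a cell-cycle transcription factor, had percentiles of 81.7 to 88.3, and Polh/Xpo5 of 78.5 to 91.6.

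The other listed pairs spanned percentiles from 23.3 to 99. Col4a4/Col4a3 had percentiles of 66.4, 52.9 and 54.1 in PROLIF and 61.8, 36.2 and 58.8 in DIFF, with widths of 520 to 733 bp, so the states overlapped. Wrap53/Trp53 (chr11:69580255-69580359), a telomerase-associated protein and the tumour suppressor p53, had percentiles of 48.0, 31.9 and 23.3 in PROLIF and 85.7, 32.6 and 62.3 in DIFF. The value of 85.7 in DIFF 1 belongs to another peak, with its summit 945 bp to the minus-strand side of the midpoint. Elsewhere the peak was 153 to 402 bp wide with its summit within 49 bp of the midpoint. Percentiles ran from 95.8 to 99 at Mrps12/Sars2, from 82.5 to 92.2 at Gart/Son, a purine synthesis enzyme and a splicing factor, from 74.4 to 92.5 at Psmb1/Tbp, a proteasome subunit and the TATA-binding protein, and from 69.4 to 87.9 at Tsc2/Nthl1, an inhibitor of mTOR signalling and a base excision repair enzyme.

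**Figure D4:**
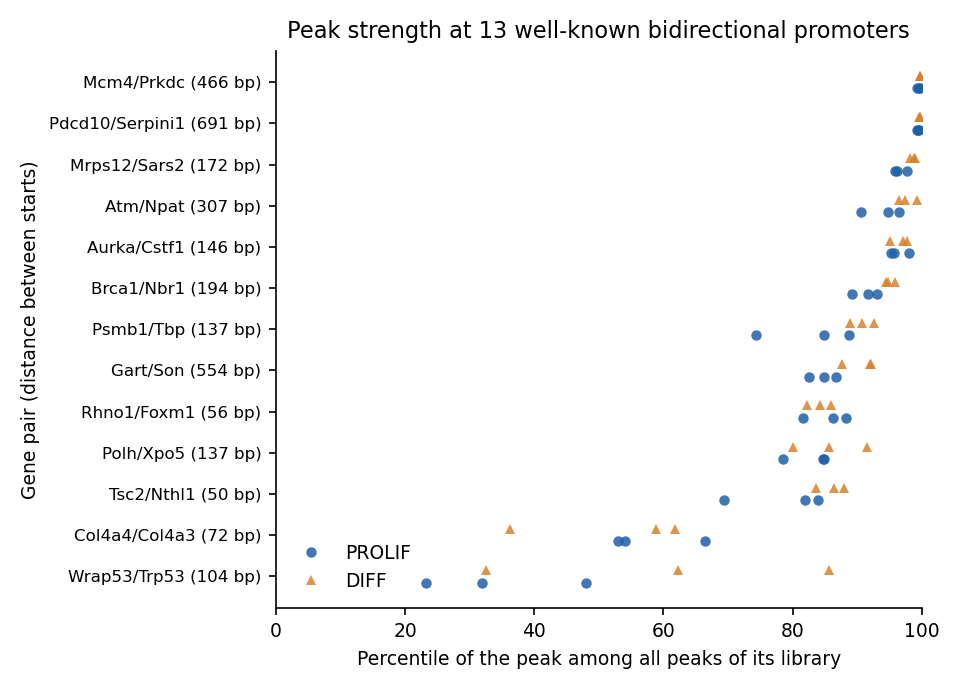
Percentile of the best peak among all peaks of its library (100 is the strongest) at 13 well-known bidirectional promoters, in 3 PROLIF libraries (circles) and 3 DIFF libraries (triangles), with the distance between starts beside each name. Mcm4/Prkdc and Pdcd10/Serpini1 lie above 99 in each library, and Col4a4/Col4a3 and Wrap53/Trp53 hold the lowest values.

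Among gene groups, pairs with a gene of DNA replication and repair had the highest median percentile of the larger groups. All 38 such pairs had a peak in all 6 libraries, with a median percentile of 96.1, against 92.3 over all pairs and 84.4 over all promoters. They ranged from Lig4/Abhd13 (58.1 to 74.3), where Lig4 encodes the ligase of non-homologous end joining, to Mcm4/Prkdc and Pms1/Ormdl1 (99.1 to 99.6), where Pms1 encodes a mismatch repair protein. Of 95 single promoters of the same gene list 93.7% had a peak in all 6 libraries. All 47 pairs with a mitochondrial gene had a peak in all 6 (median percentile 92.1), against 85.3% of 150 single promoters of that list. They included Mrpl50/Zfp189 (98.7 to 99.5) and, at the other end, Eme2/Mrps34 (19 to 63.4), both with a gene of a mitochondrial ribosomal protein. All 7 pairs with a proteasome or chaperonin gene had a peak in all 6 (median percentile 88.8). The percentages for pairs are to be read against 94.6% over all pairs, and none of these lists was tested.

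Histone genes formed 14 pairs, mostly a Hist1h2a gene facing a Hist1h2b gene in the cluster on chromosome 13, and 13 of them had a peak in all 6 libraries. Their starts were a median of 260 bp apart, and their peaks had a median percentile of 92.1 and a median width of 1107 bp, against 966 bp over all pairs. Hist1h2ah/Hist1h2bk was the strongest by median percentile (96.2 to 98.5). Hist1h2ba/Hist1h2aa, whose products are variants of the testis, had a peak in PROLIF 1 and DIFF 4 alone, with peaks of 84 and 118 bp. Histone genes have near-identical copies, so reads may be split or misplaced among them and these values are uncertain. Only 3 pairs held a gene of the list headed neural transcription factors, which also takes in Foxm1, called a cell-cycle factor above. They were Rhno1/Foxm1, Foxa3/Sympk (96.6 to 98.5) and Sox6/1110004F10Rik. The last had a peak in 5 libraries, and both its genes had another annotated transcript start with a peak in all 6. No pair held 1 of 17 genes named by the study. A single pair held a receptor of the olfactory and vomeronasal families, Nt5c3/Vmn1r4, with percentiles of 99.3 to 99.7, while 7 of 1444 single promoters of these receptors (0.485%) had a peak in all 6 libraries.

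A few pairs held the top ranks of every list, which the ranking itself requires. Ranked by their lowest percentile over the 6 libraries, the first 5 were Hjurp/Trpm8, Aasdhppt/Kbtbd3, Miip/Fv1, Zfp654/Cggbp1 and Zranb3/R3hdm1, with lowest values of 99.9, 99.7, 99.6, 99.6 and 99.6. Hjurp encodes the chaperone that loads the centromeric histone CENP-A, and its partner Trpm8, a cold-sensing ion channel of sensory neurons, starts 28 bp away, under a peak of 1379 to 1558 bp. Over all 695 pairs with a peak in all libraries the median of the percentiles had quartiles of 84.4 and 96.7 and a lowest value of 38.2. A pair's highest and lowest library differed by a median of 7.16 points (quartiles 2.89 and 13.5). At 299 pairs (43.0%) the percentile was 90 or more in each library, and at 0 it stayed under 50 in all of them.

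The 25 pairs without a peak were poorer in CpG. Their median CpG ratio was 0.208 and 6 of them (24%) were CpG-rich, against 84.0% of pairs with a peak in all 6 libraries. The 5 with the shortest distance were Best1/Rab3il1 (36 bp), Rnf151/Rps2 (53 bp), 4930430F08Rik/1700017N19Rik (61 bp), Dgcr2/Tssk2 (75 bp) and Il11/Tmem190 (78 bp). Best1 encodes a chloride channel of the retinal pigment epithelium, Rps2 a ribosomal protein, Tssk2 a testis-specific kinase and Il11 a cytokine. At 10 of the 25 pairs a gene had another annotated transcript start with a peak in all 6 libraries, Rps2 and both Best1 and Rab3il1 among them, so the gene start used here was not their only start. The others included Pecam1/Milr1, an adhesion molecule of endothelium and a receptor of mast cells, and Duox2/Duoxa2, an oxidase and its maturation factor known from the thyroid. Aspa/Gm49340 and Aspa/Spata22, both CpG-rich, share both starts and are counted as separate pairs. A missing peak means a signal under the caller's threshold and does not by itself show closed chromatin.

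The states were then compared, to see whether bidirectional promoters changed 1 day after mitogen withdrawal. Their occupancy did not differ detectably, at 95.6% ± 0.416 in PROLIF and 95.5% ± 0.515 in DIFF (SD, n = 3 each, two-sided exact permutation test, p = 0.8). PROLIF libraries had a median width of 956 ± 56.3 bp, against 983 ± 28.6 bp for DIFF libraries (p = 0.6, exact permutation test), and without PROLIF 4, the library with the fewest peaks, the difference of 26.8 bp became −4.58 bp. The median percentile was 92.3, 89.8 and 89.1 in PROLIF and 93.1, 92.7 and 94.1 in DIFF, so the states did not overlap (difference 2.89 points, exact permutation test, p = 0.1, the smallest p that 3 against 3 allows). Single promoters moved alike, by 3.49 points (exact permutation test, p = 0.1). The gap between pairs and single promoters was 7.22 ± 0.701 points in PROLIF and 6.62 ± 0.596 in DIFF (exact permutation test of the difference, p = 0.4). For occupancy and width the same test gave p = 0.6 and p = 0.6 (exact permutation tests).

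No pair had a peak in every library of 1 state and none of the other, while this held for 27 single promoters in PROLIF and 45 in DIFF, or 0.143% and 0.239% of all promoters examined. In total 15 pairs had a peak in 1 to 5 libraries, 2.11% of pairs with any peak against 14.3% of single promoters, and among CpG-rich promoters 1.02% against 5.90%. Plgrkt/Cd274, where Cd274 encodes PD-L1, had percentiles of 18.9 in DIFF 1 and 24.2 in DIFF 4 and no peak elsewhere. Ifit1bl2/Ifit1, where Ifit1 encodes an interferon-induced antiviral protein, had 14.6 in PROLIF 4 and 13.3, 21.8 and 48.8 in DIFF 1, 2 and 4. Nisch/Sema3g, where Sema3g encodes a secreted semaphorin, had 65.3, 40.9 and 37.8 in PROLIF and 50.0 in DIFF 4 alone. These 3 pairs were picked after their values were seen.

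In the model fitted across 9839 promoters with a peak in all 6 libraries (limma on quantile-normalised log2 fold enrichment, Benjamini-Hochberg over all 9839), 695 of 735 pairs entered and 1 was called. Gm17657/Tbc1d22b (chr17:29549638-29549785), a predicted gene and a gene of a TBC domain protein, had fold enrichments of 12.1, 9.53 and 9.62 in PROLIF 1, 2 and 4 and 13, 16.4 and 15.2 in DIFF 1, 2 and 4. All DIFF values lay above all PROLIF values, and the normalised difference was 0.49 on the log2 scale (SE 0.087, limma adjusted p = 0.0380). Over all promoters 0.376% were called higher and 0.793% lower in DIFF, and 0 pairs were called lower. The call for Gm17657/Tbc1d22b was lost on leaving out any of the 6 libraries (limma adjusted p = 0.0592 to 0.143). At an unadjusted limma p under 0.05 there were 67 pairs, 51 higher and 16 lower in DIFF, or 9.64% of pairs, against 15.0% of all promoters and 15.4% of single ones.

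The 4 pairs next in order of p among those higher in DIFF did not pass the threshold. Sec24a/Sar1b, which both encode parts of the COPII coat of vesicles leaving the endoplasmic reticulum, had fold enrichments of 8.81, 7.61 and 5.20 in PROLIF and 10.4, 11.4 and 10.5 in DIFF (limma adjusted p = 0.0587). Fam227a/Cby1, where Cby1 encodes a protein of the ciliary base, had 6.23, 6.08 and 5.23 in PROLIF and 7.60, 11.2 and 7.80 in DIFF (limma adjusted p = 0.0658). In both pairs the states did not overlap. C2/Ehmt2, a complement component and a histone H3 lysine methyltransferase, and Arcn1/Ift46, a COPI coat protein and a protein of ciliary transport, had log2 differences of 0.42 and 0.49 (limma adjusted p = 0.0580 and 0.0785). Arcn1/Ift46 overlapped between the states before normalisation, with 4.42 to 7.55 in PROLIF and 7.22 to 9.40 in DIFF. The lowest p among pairs lower in DIFF were those of Tlnrd1/Mesd, Parpbp/Nup37, Nudt22/Trpt1, Zcchc3/6820408C15Rik and Tada2a/Acaca, with log2 differences of −0.42, −0.59, −0.46, −0.39 and −0.24 (limma adjusted p = 0.0825 to 0.212). Parpbp encodes a protein that restrains homologous recombination and Nup37 a nucleoporin, and their promoter had 16.1, 12.7 and 7.54 in PROLIF and 7.34, 8.84 and 7.70 in DIFF. Without PROLIF 4, its lowest PROLIF library, this pair was called (limma adjusted p = 0.0202).

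Peak width gave no call among pairs (limma on log2 width, 0 of 695), against 0.0203% of all promoters called wider and 0.102% narrower in DIFF. At an unadjusted limma p under 0.05 there were 54 pairs (7.77%), against 9.56% of all promoters. A limma fit with a variance trend and robust estimation called 1 (limma adjusted p = 0.0274). That pair was Hist1h2bh/Hist1h3f, with widths of 1001, 847 and 599 bp in PROLIF and 1913, 1852 and 1971 bp in DIFF. In the main fit it was not called (log2 difference 1.21, SE 0.134, limma adjusted p = 0.0578). Its window held 2 peaks in each PROLIF library and 1 in each DIFF library, and its fold enrichment differed by −0.19 on the log2 scale (limma adjusted p = 0.494). Next among wider pairs came Scnm1/Lysmd1, Acvr1/Upp2, Ift80/Smc4 and Vps53/Fam57a. At Ift80/Smc4, a protein of ciliary transport and a condensin subunit, the peak was 1410 to 1564 bp wide in PROLIF and 1905 to 2073 bp in DIFF (limma adjusted p = 0.207). The narrower pairs with the lowest p were Exosc1/Zdhhc16, Foxa3/Sympk, Tmem126b/Dlg2, Cep128/Tshr and Dolk/Nup188 (log2 differences of −0.40 to −0.62, limma adjusted p = 0.272 to 0.312). At Cep128/Tshr the peak was 970, 1041 and 1054 bp wide in PROLIF and 791, 727 and 841 bp in DIFF, with percentiles of 99.2 to 99.7 throughout.

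**Figure D5:**
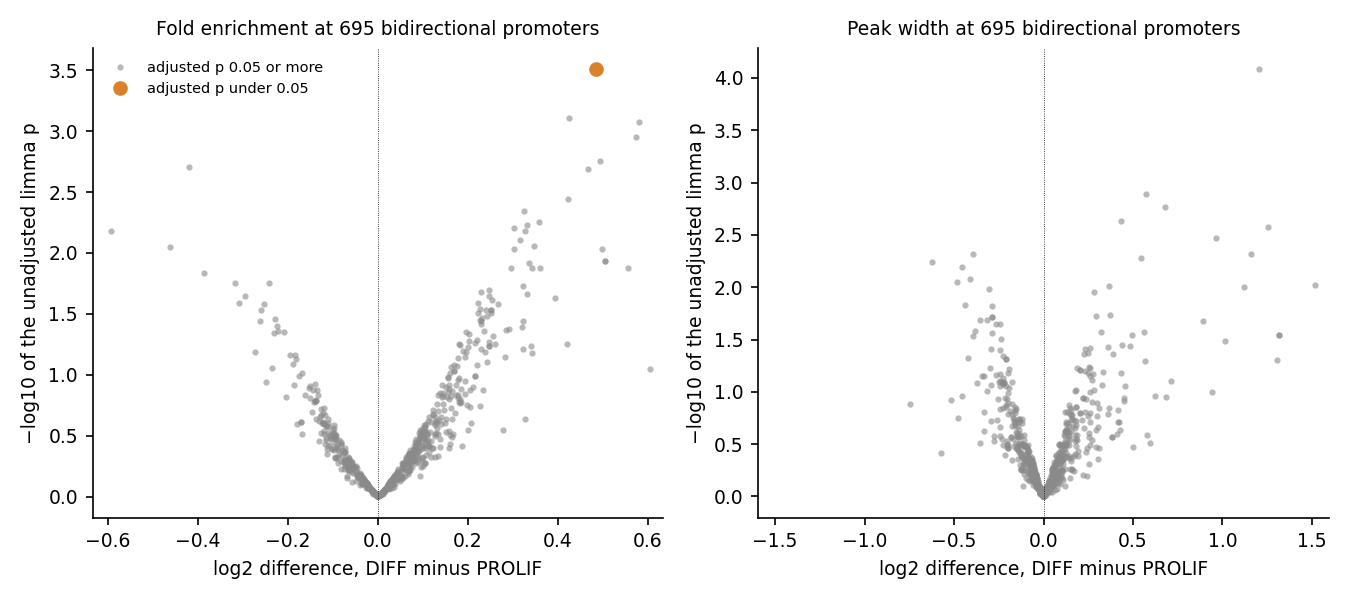
Difference between DIFF and PROLIF (log2, positive is higher in DIFF) in fold enrichment (left) and peak width (right) against −log10 of the unadjusted limma p, for 695 bidirectional promoters with a peak in all 6 libraries; each point is a pair. The single orange point is Gm17657/Tbc1d22b in fold enrichment, and no pair passed an adjusted p of 0.05 in width.

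By gene group, 0 pairs with a histone, mitochondrial, DNA replication and repair, or proteasome and chaperonin gene were called in either fit. At an unadjusted limma p under 0.05 for fold enrichment there were 3 of 13 histone pairs, 3 of 47 mitochondrial, 0 of 38 DNA replication and repair and 1 of 7 proteasome and chaperonin pairs, to be read against 15.0% of all promoters. The median log2 difference was 0.11 for histone pairs and 0.03 for each of the other 3 groups, against 0.03 over all pairs and 0.00 over all promoters. Quantile normalisation gives the libraries the same distribution over all fitted promoters. It largely sets the last value, and the fit cannot show a shift shared by all promoters. The median size of the difference, without its sign, was 0.081 for pairs and 0.1 for all promoters on the log2 scale. At the 14 well-known pairs 0 reached an unadjusted p under 0.05 for fold enrichment in limma, and their lowest adjusted p was 0.373, that of Col4a4/Col4a3.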

How the data were processed

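The 6 ATAC-seq libraries of Srr2 del/del cultures, 3 PROLIF and 3 DIFF, were grouped by their treatment labels, which name RNA although the libraries are of genomic DNA. By the study's methods, Cutadapt and Trimmomatic cleaned the reads, Bowtie2 mapped them to GRCm38, Picard marked duplicates, and MACS2 called peaks for each library with no model, at a false discovery rate of 0.05. Versions, any transposase shift and any blacklist are not given in the sources used here, and each can move peak edges. The deposited lists give positions, a score (not used), fold enrichment over local background (a ratio) and −log10 p and q.

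Promoters were built from GENCODE M21 gene starts, and 20 pair windows overlap the next window. The members and gene lists were chosen with earlier results of these data known. Percentiles rank −log10 p within a list. Background pileup (percentile 1 of local backgrounds, solved from fold and p under the caller's Poisson model) stands for depth, since read totals were not used. Library values were compared by exact sign-flip or permutation tests. Promoters with a peak in all 6 libraries were fitted with limma 3.58.1 (R 4.3.3), and the rest computed in Python 3.11.15. The fits were tested on simulated data. Sequences came from GRCm38.p6.

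Named pairs were the listed pairs meeting the rule, the 5 lowest p in each direction of each limma fit, the 5 closest pairs without a peak and the 5 with the highest lowest percentile; others were chosen after their values were seen. A listed pair and a marker are not reported here. Alternatives covered peak lists, windows, comparison promoters, normalisation, left-out libraries and the replicate block.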

Additional observations from a re-analysis of the deposited data

How the results depend on the processing

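The excess of bidirectional over single promoters in occupancy, width and percentile kept its direction and p = 0.03125 (exact sign-flip test) in all 9 other settings, at 5.36 to 44.0 percentage points, 50.1 to 159 bp and 2.02 to 7.75 points. The summit distance kept its direction in 9 of 10 and turned to 5 bp when measured to the plus-strand start alone, where a pair no longer has 2 starts to be near to. Leaving out a library gave 40.7 to 41.2 percentage points, 138 to 145 bp, 6.71 to 7.12 points and −35 to −34 bp, each with p = 0.0625, the smallest an exact test of 5 libraries allows.

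Between states, the difference in occupancy of −0.136 percentage points became 0 with windows of 500 bp around the midpoint and −0.431 to 0.0907 on leaving out a library (0.0907 without PROLIF 1, 0.0454 without DIFF 1). The difference in width ran from −4.58 bp without PROLIF 4 to 49.7 bp, and that in percentile from 2.25 to 3.85 points. The labels do not tie equal replicate numbers to a shared culture, and deviations of equal numbers correlated across promoters at 0.031 to 0.130 for fold and 0.056 to 0.080 for width, although each library correlated best with its own number. The replicate block gave exact p = 0.75, 0.75 and 0.25 for occupancy, width and percentile, with 0.25 the smallest it allows. Pairs with a peak in all libraries of 1 state alone numbered 0 to 1 in each state on leaving out a library. Under the replicate block the rule was looser: a peak in 1 state alone at 2 or more replicate numbers, never the reverse. By that rule there were 2 pairs in each state. Pairs with higher fold enrichment in DIFF numbered 3 with the replicate block (Gm17657/Tbc1d22b, Fam227a/Cby1 and Sec24a/Sar1b), 2 with trend and robust estimation and 0 on leaving out any library. Among CpG-rich promoters 0 of 584 pairs passed, but Gm17657/Tbc1d22b was not CpG-rich and so was not in that fit. Pairs with lower fold enrichment numbered 0 to 1 on leaving out a library. Wider pairs numbered 1 with trend and robust estimation and 0 to 1 on leaving out a library, and narrower pairs 0 throughout. The wider calls without PROLIF 2 and without DIFF 1 were not of Hist1h2bh/Hist1h3f (limma adjusted p = 0.143 and 0.158 in those fits). The replicate block changed no other call. For single pairs named from limma, 281 of 292 values in other settings kept direction and side of the threshold and 0 reversed. These pairs were picked for their low p in the same libraries, which favours a kept direction. All but Gm17657/Tbc1d22b were uncalled in the main fit, and staying uncalled counts as kept. The 6 values that lost a call were all those of Gm17657/Tbc1d22b. The cause of these shifts was not tested.

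The lists hold only what passed the caller, so weak accessibility cannot be told from none, and both depth and the number of peaks differ between libraries. With 3 libraries a state, small and large differences can be missed, and pairs without a call are not shown to be alike in both states.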
